A study of Mus musculus with 6 samples.

Results

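The genes described here are Prune2, against which the siRNA was directed, and its relatives that share a PRUNE or a BCH domain with it: Prune1, Bnip2, Bnipl, Arhgap1 and Atcay. They were taken from the expression table by gene symbol, which gave 6 genes of the 22274 listed, and that rule holds no measured value, although the genes were proposed with earlier results of these data known. RNA was sequenced from cultures labelled as primary mouse renal fibroblasts of wild-type genotype. In 3 libraries the cells had received siRNA against Prune2, and in the other 3 a scrambled control siRNA. Cells of both groups had been treated with TGF-β at 5 ng/ml for 48 h, so the comparison is between stimulated cells and holds no unstimulated group. The siRNA sequence, its site in the transcript, its dose and the time from transfection to harvest are not stated in the labels. The labels do not say whether replicates were separate isolations, cultures or repeat libraries, so the p-values reflect library-to-library spread that could be technical.

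The BCH domain, named after BNIP2 and Cdc42GAP (the product of Arhgap1), is a branch of the CRAL-TRIO family of lipid-binding folds that also holds yeast Sec14. Proteins with a BCH domain act as scaffolds that bind small GTPases and their regulators, and some of them bind kinesin light chains. PRUNE2 joins a PRUNE-type phosphoesterase region at its amino end to a BCH domain at its carboxyl end, and the human protein has been reported to bind RhoA and the RhoA exchange factor Lbc. PRUNE1 has the phosphoesterase region without a BCH domain. BNIP2 and BNIPL are small BCH proteins, ATCAY (caytaxin) is a neuronal BCH protein mutated in human Cayman ataxia, and ARHGAP1 has a BCH domain beside a RhoGAP domain.

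Library totals ran from 20075265 to 23234797 counts, and 13248 genes had enough counts to be tested with edgeR. Of those, 1364 (10.3%) passed an adjusted p of 0.05, with 591 (4.46%) higher and 773 (5.83%) lower under Prune2 siRNA. The fibroblast label was set beside marker genes. The fibroblast markers Dcn and Lum had 5 to 15 and 0 to 3 counts per library and were too low to test. The epithelial keratins Krt8 and Krt18 had 47273 to 54390 and 26280 to 28842 counts. The epithelial genes Epcam and Cdh16 had 8540 to 10129 and 5938 to 9174 counts. Other mesenchymal markers were well detected, with 4040 to 5495 counts of Col1a1, 13058 to 15826 of Acta2, 8532 to 12343 of Vim and 325 to 518 of Pdgfrb. Pdgfra had 92 to 117 counts. In FPKM (fragments scaled to length and depth), Krt8 had 1051 to 1256, Krt18 799 to 911, Epcam 236 to 257 and Cdh16 111 to 154. Acta2 had 297 to 374, Vim 169 to 274 and Col1a1 32.25 to 40.23 FPKM. Pdgfrb had 2.92 to 4.12, Pdgfra 0.69 to 0.94, Dcn 0.14 to 0.4 and Lum 0 to 0.05 FPKM. These markers, chosen after their values were seen, thus do not all point one way on the label. Leukocyte and endothelial marker lists were lower in Prune2 siRNA libraries and the interferon list was higher. Summed leukocyte markers were 49.1 to 50.2 CPM (counts scaled to library size) under Prune2 siRNA, against 185 to 227 CPM under control siRNA, with 13 of 14 tested markers lower. Summed endothelial markers were 88.6 to 91.3 CPM under Prune2 siRNA and 120 to 132 CPM under control siRNA, with 6 of 8 lower. Summed interferon-response genes were 177 to 221 CPM under Prune2 siRNA and 74.2 to 107 CPM under control siRNA, with 9 of 9 higher. Summed fibroblast markers were 1272 to 1348 CPM under Prune2 siRNA and 1618 to 1691 CPM under control siRNA, with 5 of 9 tested markers lower. That sum was mostly Acta2 and Vim, which averaged 586 and 395 CPM under Prune2 siRNA and 715 and 570 CPM under control siRNA. Pdgfra, Pdgfrb, Thy1 and Col3a1 were not called. Summed tubular epithelial markers were 5155 to 5596 CPM under Prune2 siRNA and 5606 to 5731 CPM under control siRNA. The largest part of that sum was Krt8, with means of 2208 CPM under Prune2 siRNA and 2420 CPM under control siRNA. Of 10 tested markers, 3 were higher (Slc12a3, Cdh16 and Pax8) and 2 lower (Krt8 and Lrp2), and Aqp2 was at 0 in all libraries. The sum and the calls thus do not all go one way. In a culture of mixed cells, fewer cells of a type and less RNA per cell cannot be told apart.

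Prune2 and Bnip2 start in windows that differ in base composition and in the letters of short promoter motifs. They are shown because Prune2 is the siRNA target and Bnip2 is the member with the highest level per transcript length. Each is the RefSeq sequence of GRCm38.p6, 5′ to 3′ on the gene's strand, with 250 bases before the annotated start and 50 after it. Capitals mark matches, on either strand, to the GC box GGGCGG or to the palindromic NRF1 motif, whose letters are the first capitals in the Bnip2 window.
Prune2, chr19:16955868-16956167, + strand: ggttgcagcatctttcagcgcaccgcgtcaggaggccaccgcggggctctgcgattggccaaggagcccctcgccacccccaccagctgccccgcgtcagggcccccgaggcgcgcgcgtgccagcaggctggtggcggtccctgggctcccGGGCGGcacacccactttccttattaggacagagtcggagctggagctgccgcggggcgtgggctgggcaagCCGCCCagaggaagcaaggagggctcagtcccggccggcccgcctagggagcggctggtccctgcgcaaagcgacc
Bnip2, chr9:69989216-69989515, + strand: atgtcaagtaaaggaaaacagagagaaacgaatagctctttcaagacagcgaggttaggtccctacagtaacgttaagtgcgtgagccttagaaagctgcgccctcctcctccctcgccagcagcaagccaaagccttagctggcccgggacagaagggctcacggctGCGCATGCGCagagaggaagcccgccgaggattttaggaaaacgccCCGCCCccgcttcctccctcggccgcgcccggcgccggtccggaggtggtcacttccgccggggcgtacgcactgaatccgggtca
The Prune2 window is 72.7% G and C and has 28 CpG pairs, against medians of 52.7% and 7 over 32851 promoters of the same length. It holds GC boxes that begin 98 and 26 bases before the start, a motif found in 35.7% of those promoters. The Bnip2 window is 61.3% G and C with 27 CpG pairs. Its NRF1 match begins 82 bases and its GC box 36 bases before the start, and the NRF1 letters occur in 0.971% of promoters. Both strands were also searched for the ETS motif CCGGAAGT, found in 3.89% of promoters, and for TATAAA, found in 13.6%. The Arhgap1 window, set on a RefSeq start 258 bases downstream of the GENCODE start, holds ETS matches 52 and 2 bases before that RefSeq start, and directly after the first of them a GC box. None of the 4 motifs was found in the Prune1 window, which is 32.3% G and C with 4 CpG pairs. A match is a description of the letters, and no library here measures binding. Bnipl and Atcay had no entry in the promoter table.

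Prune2 (ENSMUSG00000039126) was lower under Prune2 siRNA in every library of that group, and it was a low-abundance transcript in both groups. The gene spans 267815 bases of chromosome 19, from 16956118 to 17223932 on the + strand of GRCm38. It had 80, 73 and 104 counts in Prune2 siRNA replicates 1 to 3, against 133, 157 and 150 counts in control siRNA replicates 1 to 3. Scaled to library size these were 3.78, 3.19 and 4.44 CPM under Prune2 siRNA and 6.49, 7.85 and 6.52 CPM under control siRNA. The highest Prune2 siRNA library lay below the lowest control library, so the groups did not overlap, as was the case for 24.3% of all tested genes.

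The means were 3.80 ± 0.629 CPM under Prune2 siRNA and 6.95 ± 0.775 CPM under control siRNA (SD, n = 3 each). The fitted log2 fold change was -0.87 (SE 0.15, 95% interval -1.18 to -0.55), with an adjusted p of 0.000214 in edgeR's quasi-likelihood test. The level under Prune2 siRNA was therefore 54.8% of the level under control siRNA, with an interval of 44.1 to 68.1%. An exact two-sided permutation test on CPM gave p = 0.1, the smallest that 3 libraries against 3 allow. Prune2 reads were thus still counted in every Prune2 siRNA library. By size of change Prune2 lay beyond 97.0% of tested genes, and 260 of the 773 genes called lower, Prune2 included, fell at least as far on the log2 scale. By adjusted p it stood at rank 421.

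Per transcript length the difference was smaller. Prune2 had 0.80, 0.82 and 0.92 FPKM (fragments scaled to length and depth) in Prune2 siRNA replicates 1 to 3, against 1.13, 1.33 and 1.08 FPKM in control siRNA replicates 1 to 3. The groups again did not overlap, in the same libraries as for CPM, so this is not separate evidence. The share of all genes without overlap in FPKM is not given here. The means were 0.847 ± 0.0643 FPKM under Prune2 siRNA and 1.18 ± 0.132 FPKM under control siRNA, a difference of -28.2%. On the log2(FPKM + 1) scale, which understates the change of low genes, the difference was -0.24 (SE 0.09, 95% interval -0.43 to -0.04) and did not pass limma's test (adjusted p = 0.180), which called 5.79% of 12231 genes. In the authors' deposited table the log2 fold change of Prune2, the ratio of mean FPKM, was -0.48. The adjusted p in the authors' deposited table was 0.000249, under the 0.05 that 4.64% of its genes passed. Its unadjusted p of 6.45e-06 in the authors' deposited table equals, to 6 digits, that of DESeq2 on the counts of Prune2, where the log2 fold change was -0.87, so it does not belong to the FPKM ratio.

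**Figure D1:**
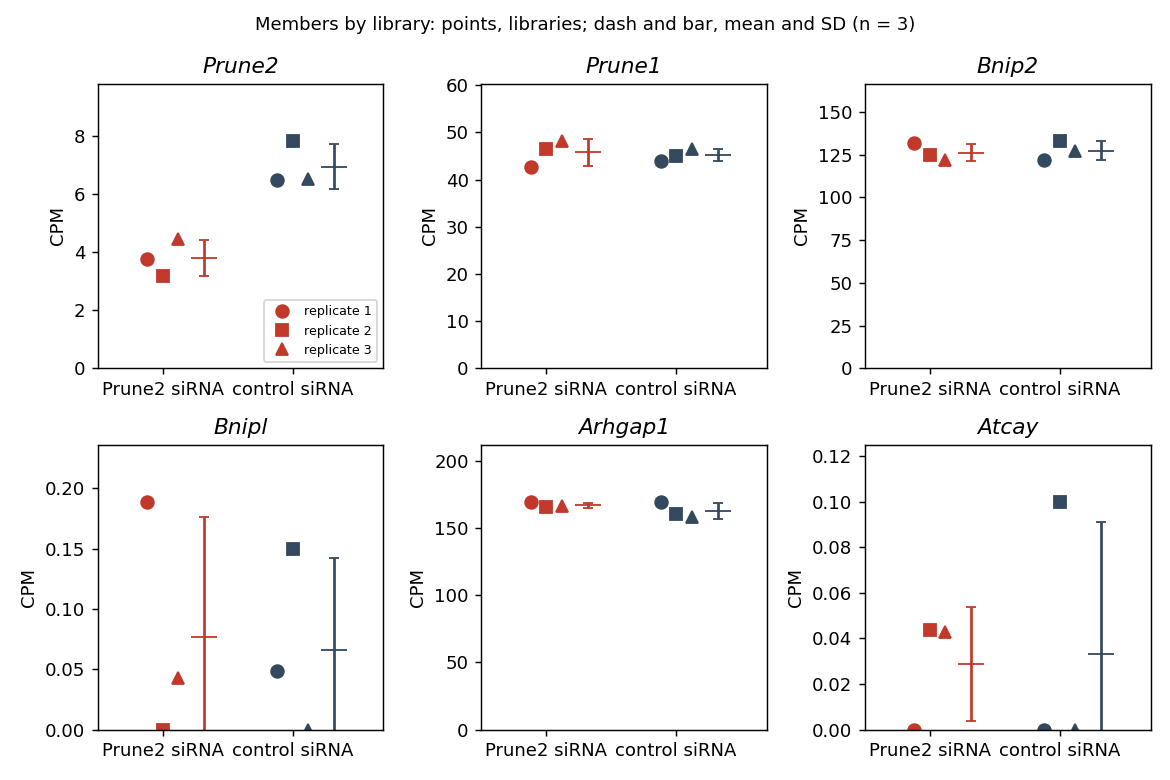
CPM of each of the 6 genes by library, with Prune2 siRNA left of control siRNA, 1 panel and 1 linear scale from 0 per gene. Points are libraries and dash with bar is mean and SD (n = 3); the Prune2 siRNA points of Prune2 lie between 3.19 and 4.44, all below the control points, while the groups of Prune1, Bnip2 and Arhgap1 overlap.

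The gap between the count and FPKM differences can be written as a length. The library's count of a gene, divided by the library's scaled total and by the FPKM, gives the transcript length that the deposited FPKM implies. For Prune2 it was 4733, 3876 and 4865 bases in Prune2 siRNA replicates 1 to 3, against 5711, 5880 and 6029 bases in control siRNA replicates 1 to 3. The groups did not overlap, as for 10% of the 11975 genes with at least 20 counts in every library. The means were 4492 ± 537 bases under Prune2 siRNA and 5874 ± 159 bases under control siRNA (SD, n = 3 each), a ratio of 0.765 (exact two-sided permutation p = 0.1, the smallest possible). Over the 11975 genes the ratio had a median of 1.00 and its 5th to 95th percentiles were 0.948 and 1.06. A ratio at or below that of Prune2 was seen in 26 genes (0.217%), Prune2 included. A mean of 50 to 300 counts, a range that holds Prune2, was found for 3144 genes. Of those, 27 (0.859%), Prune2 included, lay as far from 1 in either direction. Rounding of the deposited FPKM moves a Prune2 value by at most 0.625%.

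The annotation gives the lengths of single transcripts, and an implied length, which differed between libraries, need not equal any of them. GENCODE M21 lists 9 Prune2 transcripts, 3 of them protein-coding. Prune2-201 has 20 exons and 12512 bases, of which 9252 are coding. Prune2-202 has 9 exons and 1803 bases, and Prune2-207 has 11 exons and 2115 bases. Both short forms start 180648 bases downstream of the gene's first base, and all of their 882 and 969 coding bases also belong to Prune2-201. They thus share the 3′ coding exons of the long form and lack its 5′ exons. The implied lengths of both groups lay between the short coding forms and the long one. Of the non-coding forms, the retained-intron transcript Prune2-204 has 4448 bases, a length within the range implied under Prune2 siRNA. The other non-coding forms have 946 to 1885 bases. A count per gene does not say which transcript a read came from, and how the authors set the length of a gene with several transcripts is not stated in the labels.

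**Figure D2:**
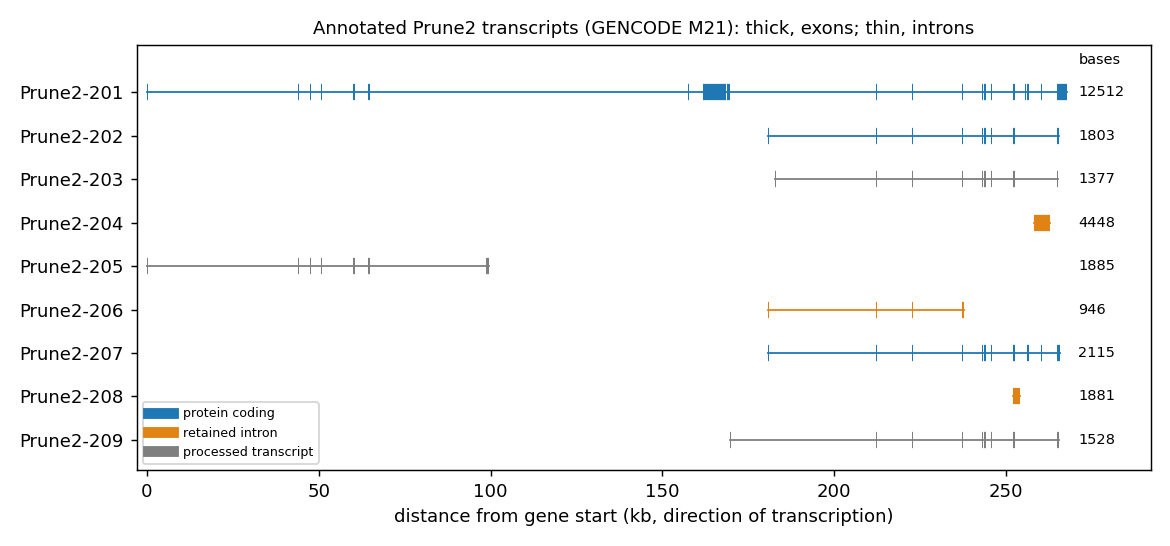
The 9 annotated Prune2 transcripts, drawn to scale as distance in kilobases from the gene's start in the direction of transcription, with exons thick and introns thin and colour giving the annotated class. Prune2-201 covers the gene with 20 exons, and the short coding forms Prune2-202 and Prune2-207 begin 180648 bases downstream.

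The implied length was also computed for the relatives. Prune1, with a coding transcript of 3140 bases, gave 3140.0 ± 0.509 bases under Prune2 siRNA and 3140.5 ± 0.327 bases under control siRNA. Arhgap1, with 4 coding transcripts, gave 3003 ± 7.91 bases under Prune2 siRNA and 3002 ± 14.3 bases under control siRNA. Bnip2 has 5 coding transcripts of 644 to 2464 bases and varied more between libraries. It gave 1652, 1813 and 1741 bases under Prune2 siRNA, against 1590, 1707 and 1808 bases under control siRNA, groups that overlapped (ratio 1.02, exact permutation p = 0.7). The groups of all 3 relatives overlapped, and those of Prune2 did not, as for 10% of the 11975 genes. Prune1 has 1 coding transcript and those of Arhgap1 span 2866 to 3201 bases, which leaves little room for a shift. Prune1, the lowest of the 3, had 899 to 1130 counts per library, against 73 to 157 for Prune2. These relatives therefore do not show how far the implied length of Prune2 could vary.

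**Figure D3:**
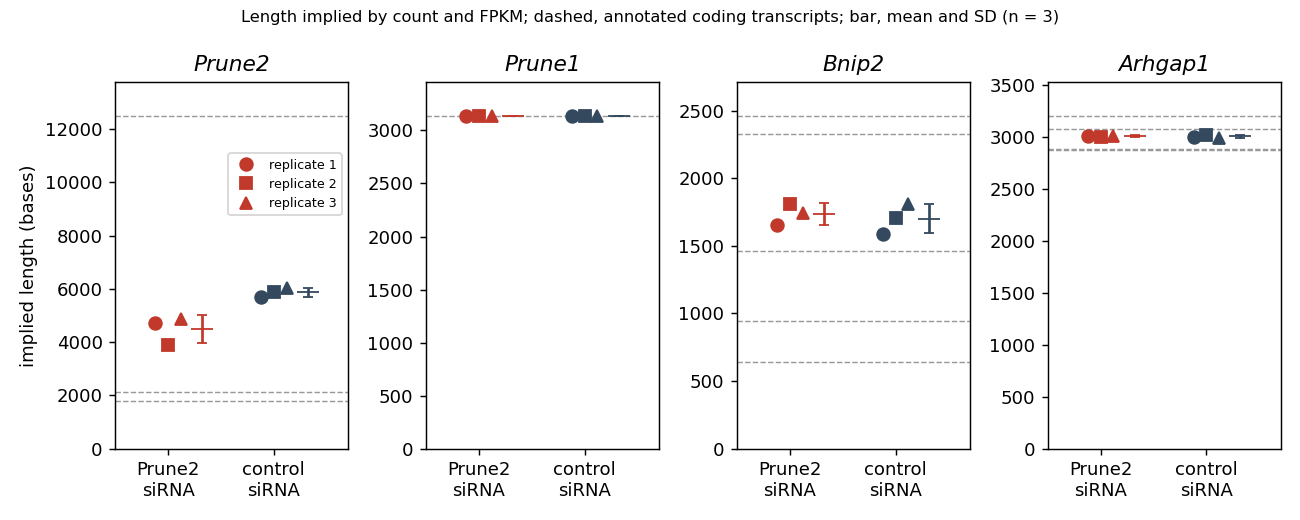
Length in bases implied by the deposited count and FPKM of each library, for the 4 genes with at least 20 counts in every library, with Prune2 siRNA left of control siRNA. Points are libraries, the bar is mean and SD (n = 3) and dashed lines are annotated coding transcripts; the Prune2 points lie at 3876 to 4865 bases under Prune2 siRNA and 5711 to 6029 bases under control siRNA.

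None of the relatives with enough counts passed the test, with 0 of 3 called by edgeR, 0 by DESeq2 and 0 at an unadjusted edgeR p under 0.05. With 10.3% called among all tested genes, a count of 0 in 3 is near the background and says nothing particular to them. Prune1 (ENSMUSG00000015711, chromosome 3, 95253674 to 95282076, - strand), the phosphoesterase relative, had 42.7, 46.4 and 48.3 CPM under Prune2 siRNA and 43.9, 45.0 and 46.6 CPM under control siRNA. The groups overlapped. The log2 fold change was 0.02 (SE 0.06, edgeR adjusted p = 0.901), and the interval of the Prune2 siRNA level ran from 93.6 to 109.8% of the control level.

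Bnip2 (ENSMUSG00000011958, chromosome 9, 69989466 to 70008317, + strand) encodes the scaffold for which the BCH domain was partly named. It had 131, 125 and 122 CPM under Prune2 siRNA and 122, 133 and 127 CPM under control siRNA, so the ranges of both groups were nearly the same. Its log2 fold change was -0.01 (SE 0.04, edgeR adjusted p = 0.901), with the level under Prune2 siRNA at 93.2 to 105.1% of control.

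Arhgap1 (ENSMUSG00000027247, chromosome 2, 91649860 to 91672326, + strand) encodes a GTPase-activating protein for Cdc42 and RhoA. It had 169.1, 165.4 and 166.3 CPM under Prune2 siRNA and 169.4, 160.7 and 157.9 CPM under control siRNA, and the groups overlapped. Its log2 fold change was 0.04 (SE 0.04, edgeR adjusted p = 0.658), with the level under Prune2 siRNA at 97.2 to 108.4% of control. The intervals of these 3 relatives exclude a fall as large as that of Prune2.

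Bnipl and Atcay were at or near the floor of 3 counts, which equals 0.129 to 0.149 CPM in these libraries. Bnipl (ENSMUSG00000028115, chromosome 3, 95241271 to 95251193, - strand) had 4, 0 and 1 counts under Prune2 siRNA and 1, 3 and 0 counts under control siRNA. The ratio of summed counts per depth was 1.18, with a 95% counting interval of 0.255 to 5.96. Atcay (ENSMUSG00000034958, chromosome 10, 81204508 to 81230833, - strand) had 0, 1 and 1 counts under Prune2 siRNA and 0, 2 and 0 counts under control siRNA, for a ratio of 0.946 with an interval of 0.0686 to 13.1. A change of either gene was not detectable at this depth, and neither was tested. The neuronal markers beside which caytaxin is known were low as well, with a summed level of 2.69 to 4.15 CPM under Prune2 siRNA and 5.07 to 5.09 CPM under control siRNA, and Snap25 at 0 in all 6 libraries. That sum was mostly Tubb3, the 1 tested gene of the list, which had 2.26 to 3.63 CPM under Prune2 siRNA and 4.30 to 4.65 CPM under control siRNA and was called lower (log2 fold change -0.69, edgeR adjusted p = 0.0144).

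Per transcript length, Bnip2 stood highest. It had 68.64 to 79.85 FPKM under Prune2 siRNA and 70.20 to 77.74 FPKM under control siRNA, above 93.4% of tested genes. Arhgap1 came next, with 55.11 to 56.39 FPKM under Prune2 siRNA and 52.79 to 56.10 FPKM under control siRNA. Prune1 had 13.64 to 15.49 FPKM under Prune2 siRNA and 13.89 to 14.82 FPKM under control siRNA. No library of one of these 3 genes reached into the range of the next. Prune2 followed at 0.80 to 0.92 FPKM under Prune2 siRNA and 1.08 to 1.33 FPKM under control siRNA, above 14.3% of tested genes. Bnipl at 0 to 0.11 FPKM and Atcay at 0 to 0.03 FPKM over both groups overlapped and were not ordered. The siRNA target was thus the lowest of the 4 genes with enough counts for the filtered edgeR test. Its paralogue Prune1 was the member of the PRUNE pair with the higher level in both groups.

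Bnipl and Prune1 are neighbours on chromosome 3, on the same strand and 2480 bases apart. Prune1 nonetheless had 899 to 1130 counts per library where Bnipl had 0 to 4. Prune1 shares 127 exonic bases with Mindy1 on the opposite strand, and Bnipl shares 328 with Gm128 on its own. The labels do not state whether counting used strand, so reads in shared bases cannot be assigned. Of 12 neighbouring protein-coding genes of the members, 8 could be tested and 0 were called by edgeR or by DESeq2, with 1 (Anxa9, log2 fold change 0.39, adjusted p = 0.139) at an unadjusted edgeR p under 0.05. Against 10.3% called among all tested genes, 0 called of 8 is near the background. Gcnt1, which lies 102.208 kb past the end of Prune2, had 5.22 ± 0.510 CPM under Prune2 siRNA and 5.23 ± 0.498 CPM under control siRNA, a log2 fold change of 0.00 (edgeR adjusted p = 0.998). Foxb2, on the other side of Prune2, was too low to test.

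Genes of the wider CRAL-TRIO family were listed to place the members. Of 19 listed, 12 were tested and 0 were called by edgeR or by DESeq2, against 10.3% called over all tested genes. The median log2 fold change was 0.02, against 0.00 over all tested genes. An unadjusted edgeR p under 0.05 was seen for 3, a count for which no share over all tested genes is given here. Those 3 were Arhgap8, Trio and Mospd2. Mospd2, which encodes a membrane contact site protein with a CRAL-TRIO domain, had a log2 fold change of 0.15 (SE 0.05, edgeR adjusted p = 0.102) with groups that did not overlap. It was called when Prune2 siRNA replicate 1 was left out, which made the count 1, and in none of the other alternatives. Arhgap8, which like Arhgap1 pairs a BCH domain with a RhoGAP domain, had 9.11, 7.24 and 6.41 CPM under Prune2 siRNA and 6.10, 6.80 and 5.13 CPM under control siRNA. The groups overlapped, and its log2 fold change of 0.34 (SE 0.14) did not pass edgeR's test (adjusted p = 0.169). Trio, a guanine nucleotide exchange factor with a Sec14-like region, had a log2 fold change of -0.10 (adjusted p = 0.0984).

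Of 27 genes of RhoA and Cdc42 signalling, the pathway on which BCH proteins act, 27 were tested, 2 were called lower and 0 higher, with a median log2 fold change of -0.02. That count stands beside 10.3% called among all tested genes, and it ran from 1 to 3 over 11 alternative settings. An unadjusted edgeR p under 0.05 was seen for 5 of the 27, all lower, the 2 called genes included. The share of all tested genes at that unadjusted p is not given here, and the 10.3% is no background for these 5. In the alternatives, Arhgdib was called without Prune2 siRNA replicate 1 or control siRNA replicate 3, and Dlc1 without Prune2 siRNA replicate 2. Cdc42bpa, which encodes the Cdc42 effector kinase MRCKα, had 169.1, 188.3 and 179.5 CPM under Prune2 siRNA and 209.2, 205.0 and 215.9 CPM under control siRNA. The groups did not overlap, and the log2 fold change was -0.23 (SE 0.04, edgeR adjusted p = 0.000207). Akap13, which encodes the exchange factor Lbc, had 108.6, 123.9 and 111.5 CPM under Prune2 siRNA and 121.1, 128.5 and 132.1 CPM under control siRNA. These groups overlapped, and the log2 fold change of -0.15 (SE 0.05) passed narrowly (edgeR adjusted p = 0.0396). The adjusted p of Akap13 ran from 0.0035 to 0.189 over 11 alternative settings, and the call was lost in 5 of them. These were DESeq2 (0.0793), without Prune2 siRNA replicate 1 (0.189) or 3 (0.182), and without control siRNA replicate 2 (0.131) or 3 (0.154). The GTPases themselves were not called. Rhoa averaged 407 ± 6.93 CPM under Prune2 siRNA and 407 ± 11.6 CPM under control siRNA (adjusted p = 0.985), and Cdc42 averaged 450 ± 10.3 CPM under Prune2 siRNA and 457 ± 3.88 CPM under control siRNA (adjusted p = 0.799).

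Of 7 kinesin-1 genes, whose light chains bind BNIP2 and caytaxin, 7 were tested. Of these, 0 were called by edgeR or by DESeq2, beside 10.3% called among all tested genes. An unadjusted edgeR p under 0.05 was seen for 1, with no share over all tested genes given beside it. That gene was the light chain Klc4, with a log2 fold change of 0.20 (SE 0.07, edgeR adjusted p = 0.0767) and groups that did not overlap. Kif5b, a heavy chain, had a log2 fold change of -0.06 (adjusted p = 0.383) and Klc1, a light chain, 0.08 (adjusted p = 0.314). The genes that share the BNIP name without a BCH domain, Bnip1, Bnip3 and Bnip3l, and Bcl2 gave 0 calls by either tool and 0 unadjusted edgeR p-values under 0.05 among 4 tested.

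Of 10 genes whose products have been reported to bind or act on a member protein or its transcript, 1 was called higher and 1 lower. Their median log2 fold change was -0.03. These 2 calls stand beside 10.3% called among all tested genes. An unadjusted edgeR p under 0.05 was seen for 6 of the 10. The 10.3% is a share at adjusted p and is no background for these 6. The share of all tested genes at that unadjusted p is not given here, so no excess can be read from them. In the alternatives, Boc was called with no count filter and without Prune2 siRNA replicate 3, and Gsk3b without Prune2 siRNA replicate 2. Adar encodes the RNA-editing enzyme ADAR1, reported in human cells to act on the PRUNE2 transcript. It had 103.9, 105.7 and 96.2 CPM under Prune2 siRNA and 79.1, 87.5 and 79.0 CPM under control siRNA, without overlap (log2 fold change 0.32, SE 0.05, edgeR adjusted p = 3.35e-05). ADAR1 is also interferon-inducible, and all 9 tested genes of the interferon list were higher under Prune2 siRNA with a median log2 fold change of 1.56. Their part in the Adar result was not tested. Fgfr1, whose product was reported to phosphorylate BNIP2, had 158.8, 157.4 and 160.2 CPM under Prune2 siRNA and 172.7, 170.8 and 172.3 CPM under control siRNA. The groups were apart by a small step (log2 fold change -0.11, SE 0.04, edgeR adjusted p = 0.0387). The Fgfr1 call held in 4 of 11 alternatives, with adjusted p from 0.0238 to 0.0947, and was lost with no count filter (0.0528) and whenever any 1 library was left out.

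**Figure D4:**
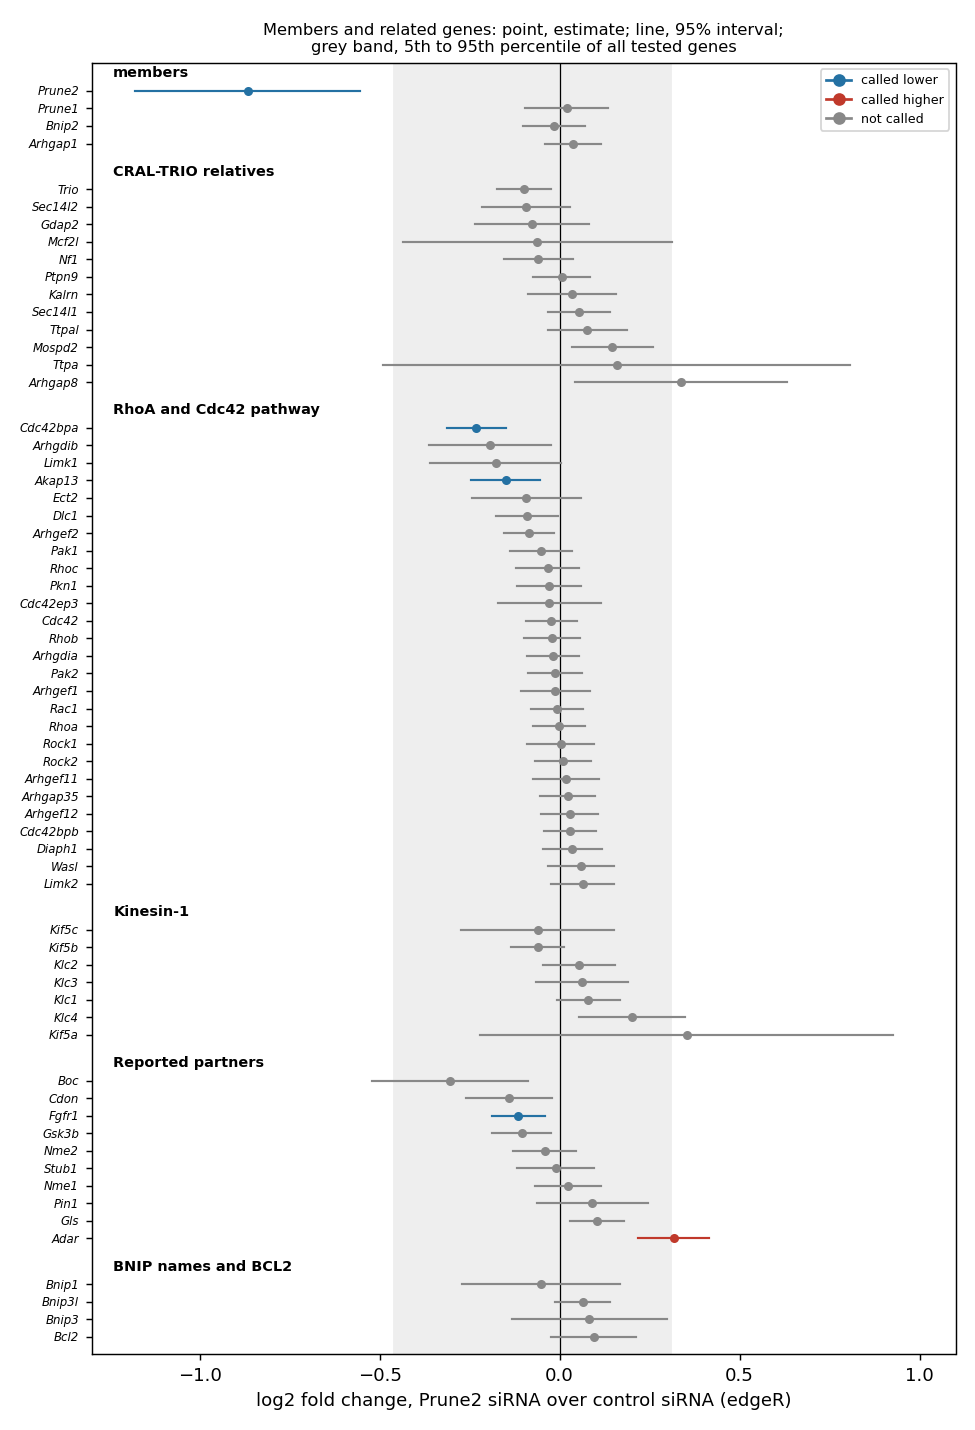
Log2 fold change of Prune2 siRNA over control siRNA from edgeR for the tested members and the tested genes of the related lists, with points for estimates and lines for 95% intervals; colour shows whether a gene was called lower, called higher or not called. The grey band is the range from the 5th to the 95th percentile of all 13248 tested genes, -0.46 to 0.31; Prune2 at -0.87 lies outside it, and Prune1, Bnip2 and Arhgap1 lie at 0.02, -0.01 and 0.04.

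The genes with the profile most like that of Prune2 over the 6 libraries were sought by the root mean square difference of log2(CPM + 1), each gene centred on its own mean. The nearest of 12065 genes was Plvap, which encodes a protein of endothelial diaphragms, at 0.0526, followed by Lmcd1 (0.0912), Nid2 (0.0964), Mertk (0.103) and Loxl3 (0.105). The median distance over all candidates was 0.399. Plvap had 6.44 ± 0.824 CPM under Prune2 siRNA and 11.2 ± 1.11 CPM under control siRNA, a log2 fold change of -0.80 (edgeR adjusted p = 2.55e-05). Lmcd1, a LIM-domain transcription cofactor gene, had 28.5 ± 3.81 CPM under Prune2 siRNA and 44.5 ± 0.235 CPM under control siRNA. All 5 were lower under Prune2 siRNA without overlap, and since nearness was measured over the same 6 libraries, that direction and any likeness within a group follow from how they were chosen. The endothelial marker list, which moved in the same direction with a median log2 fold change of -0.50, and the leukocyte list, with a median of -2.57, changed with the Prune2 fall, and their part in it was not tested.

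**Figure D5:**
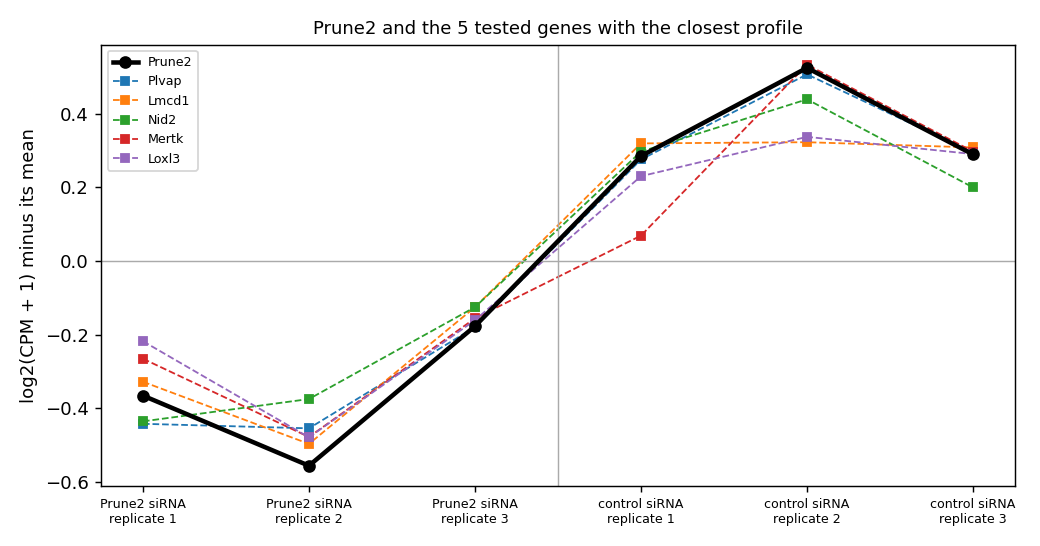
Log2(CPM + 1) of Prune2 and of the 5 nearest genes, each minus its mean over the 6 libraries, with the Prune2 siRNA libraries left of the control siRNA libraries. Lines join values of the same gene and imply no order of replicates; all 6 genes are below 0 in the Prune2 siRNA libraries and above 0 in the control siRNA libraries, and the distance of Plvap from Prune2 is 0.0526.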

How the data were processed

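RNA-seq of 6 libraries, 3 per group, was deposited as a table of 22274 genes. Per the file headers, the authors deposited a read count and an FPKM value per gene and library, their group means, a log2 fold change, and a p-value with its adjusted form. The submitters' processing notes name the builds GRCm38 and mm10. Not given in the sources used here are the aligner, the counter, strandedness and the length behind FPKM.

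The test of counts used edgeR 4.0.16 under R 4.3.3 (TMM scaling, filterByExpr, quasi-likelihood F test, Benjamini-Hochberg adjustment over 13248 genes, threshold 0.05). CPM are counts scaled to TMM-adjusted library size. FPKM values were tested as log2(FPKM + 1) with limma 3.58.1 over 12231 genes at 0.5 FPKM or more in at least 3 libraries. DESeq2 1.42.0, limma-voom, other scaling, no filter, a replicate block and leaving out each library were alternatives. Identifiers were matched to GENCODE M21 for 22219 genes and not for 55. Intervals on summed counts cover counting error only.

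The members and lists were chosen with earlier results of these data known. Genes named are the members, up to 2 called genes per direction in each list with the smallest adjusted p, the 5 nearest profiles among genes with a mean of at least 1 CPM and the nearest coding neighbours. Marker lists were read as sums. Arhgap8, Trio, Mospd2, Rhoa, Cdc42, Arhgdib, Dlc1, Kif5b, Klc1, Klc4, Boc, Gsk3b and Tubb3 were named after their values were seen. So were the marker genes of the label check and those named beside the fibroblast and tubular epithelial sums.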

Additional observations from a re-analysis of the deposited data

How the results depend on the processing

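The fall of Prune2 was called under all 11 alternatives, with log2 fold changes from -0.999 to -0.75 and adjusted p from 1.72e-07 to 0.00427. Its log2(FPKM + 1) difference ran from -0.27 to -0.19 over 8 alternatives, and on the log2(FPKM + 0.1) scale it was -0.43. It passed in none of the 9 (adjusted p 0.134 to 0.434). Its implied length ratio ran from 0.733 to 0.817 over 7. The number of genes called was 997 to 1605 over the alternatives.

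Values near 0 changed sign without a call when 1 library was left out. The log2 fold change of Prune1 then ran from -0.021 (without Prune2 siRNA replicate 3) to 0.065 and was -0.0038 without control siRNA replicate 1. That of Bnip2 ran from -0.049 to 0.015 (without control siRNA replicate 2) and was 0.0079 without Prune2 siRNA replicate 3. The log2(FPKM + 1) difference ran from -0.014 (without Prune2 siRNA replicate 3) to 0.072 for Prune1, and from -0.099 to 0.0084 (without Prune2 siRNA replicate 2) for Bnip2. The cause of these changes of sign was not tested. The implied length ratio of Arhgap1 was 1.001 with plain library totals and 0.995 with TMM-scaled library sizes. That scaling applies 1 factor per library to every gene. The ratios of Prune1 and Bnip2 fell with it as well, from 1.000 to 0.994 and from 1.020 to 1.014.

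Libraries with the same number deviated together little (correlations 0.0632, -0.003 and 0.0399), so the numbers were not taken as pairs. With a replicate block the log2 fold change of Prune2 was -0.87 (edgeR adjusted p = 9.53e-05), its log2(FPKM + 1) difference -0.24 (limma adjusted p = 0.244) and 1490 genes were called. Summed Prune2 counts of 257 under Prune2 siRNA and 440 under control siRNA limit its precision. Bnipl and Atcay were too low to pass the count filter.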
